A study of Drosophila melanogaster with 2 samples.

Results

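The genes described here encode the nuclear subunits of the 5 oxidative phosphorylation complexes of Drosophila melanogaster, seen at their promoters in a map of Su(var)2-10 on chromatin. Members were all protein-coding genes on nuclear chromosomes whose symbol starts with ND-, Sdh, UQCR, COX or ATPsyn in the Ensembl annotation, which gave 88 of 13945 protein-coding genes outside Y. They comprise 40 genes of complex I, 8 of complex II, 9 of complex III, 16 of complex IV and 15 of complex V. The rule used names alone and no measured value. It left out subunits with other names, such as blw and RFeSP, which are counted separately below, and it took in Sdhaf3, an assembly factor.

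Oxidative phosphorylation takes place in the inner mitochondrial membrane, where complexes I to IV pass electrons from NADH and succinate to oxygen and complex V, the ATP synthase, uses the resulting proton gradient to make ATP. A few subunits are encoded in mitochondrial DNA and the others in the nucleus, and these nuclear genes are active in most tissues. Several subunit genes of the fly also have a second copy, marked by an L in the symbol, and many such copies are known to be expressed mainly in testis. All other members, Sdhaf3 included, are called first copies here, whether or not a second copy of them exists. Su(var)2-10 is the PIAS-type SUMO ligase of the fly, a nuclear protein that helps attach SUMO to other proteins.

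The series holds 1 group, embryos aged 0 to 24 h of both sexes pooled, from a transgenic line with stable expression of Su(var)2-10 fused at its C-terminus to GFP. Chromatin was precipitated from 2 biological replicates, numbered 2 and 3, and sequenced. The sample description gives an antibody against GFP, whereas the antibody field names Su(var)2-10, and which was used cannot be told from the labels. Whole embryos mix all cell types and stages of that day, and no second genotype or stage was compared. The deposited lists hold peaks and no reads, so depth is unknown, and nothing states separate cultures or parents for the replicates.

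Each dm6 list of candidate peaks, of replicate 2, of replicate 3 and of both replicates pooled, held 30000 peaks, many of them at background level. A reproducible peak was 1 of the 2942 that passed the irreproducible discovery rate filter of the authors, which are exactly ranks 1 to 2942 of the pooled list. Signal is the authors' peak score, which has no unit. Scores of different lists are therefore never set against each other, and rank 1 is the highest of a list. Rank 2942 corresponded to a signal of 63.5 in replicate 2, 71.6 in replicate 3 and 129 in the pooled peaks. A gene was counted as having a peak when a summit lay within 500 bp of any of its annotated start sites. One group of 2 replicates allows no test between conditions, and shares are given as descriptions with 95% Wilson intervals that cover counting error only.

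The 6 promoters below belong to the members with the highest reproducible peaks outside one chromosome arm that is not printed, and are shown because each contains its peak summit. Each runs 250 bp before to 50 bp after the start site nearest to the summit, 5′ to 3′ along the gene, as read from the RefSeq Release 6 genome. Capitals mark matches to the respiratory gene element (TTACATAA, TTACGTAA, TTATATAA or TTATGTAA), the DRE (TATCGATA), the core of motif 1 (GGTCACAC), the E-box CAGCTG and the BEAF-32 core CGATA, on either strand. The BEAF-32 core also lies within the DRE.
ND-ASHI (dm6, chrX:6679069-6679368, minus strand): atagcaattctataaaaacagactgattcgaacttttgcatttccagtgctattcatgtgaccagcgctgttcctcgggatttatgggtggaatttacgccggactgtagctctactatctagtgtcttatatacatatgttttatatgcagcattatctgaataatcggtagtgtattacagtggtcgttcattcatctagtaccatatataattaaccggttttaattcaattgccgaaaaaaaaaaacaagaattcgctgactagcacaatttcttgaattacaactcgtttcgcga
ND-42 (dm6, chr3R:22027459-22027758, plus strand): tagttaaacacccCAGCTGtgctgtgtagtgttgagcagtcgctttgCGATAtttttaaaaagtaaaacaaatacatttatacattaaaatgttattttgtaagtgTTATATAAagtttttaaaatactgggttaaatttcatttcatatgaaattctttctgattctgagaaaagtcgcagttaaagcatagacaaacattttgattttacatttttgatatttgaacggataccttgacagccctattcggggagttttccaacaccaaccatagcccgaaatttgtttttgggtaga
ND-SGDH (dm6, chr3L:12138535-12138834, minus strand): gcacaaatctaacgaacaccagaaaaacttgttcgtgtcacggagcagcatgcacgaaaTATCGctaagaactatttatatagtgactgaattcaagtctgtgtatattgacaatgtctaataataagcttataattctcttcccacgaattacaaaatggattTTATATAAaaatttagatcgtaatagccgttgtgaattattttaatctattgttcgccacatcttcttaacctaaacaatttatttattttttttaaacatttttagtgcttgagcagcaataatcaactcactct
ND-51 (dm6, chr2L:6062708-6063007, minus strand): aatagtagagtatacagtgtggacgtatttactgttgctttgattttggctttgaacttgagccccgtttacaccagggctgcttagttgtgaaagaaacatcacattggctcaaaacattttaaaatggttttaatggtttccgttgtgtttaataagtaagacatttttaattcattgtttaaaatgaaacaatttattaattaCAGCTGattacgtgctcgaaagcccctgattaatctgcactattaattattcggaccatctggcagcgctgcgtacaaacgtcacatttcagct
COX8 (dm6, chr3L:21539398-21539697, minus strand): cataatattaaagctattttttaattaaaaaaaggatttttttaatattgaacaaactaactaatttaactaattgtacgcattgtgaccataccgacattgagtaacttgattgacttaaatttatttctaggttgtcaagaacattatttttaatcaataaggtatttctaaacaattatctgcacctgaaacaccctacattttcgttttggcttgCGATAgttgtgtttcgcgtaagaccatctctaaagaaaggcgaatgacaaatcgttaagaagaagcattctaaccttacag
ATPsynE (dm6, chr3R:14326697-14326996, plus strand): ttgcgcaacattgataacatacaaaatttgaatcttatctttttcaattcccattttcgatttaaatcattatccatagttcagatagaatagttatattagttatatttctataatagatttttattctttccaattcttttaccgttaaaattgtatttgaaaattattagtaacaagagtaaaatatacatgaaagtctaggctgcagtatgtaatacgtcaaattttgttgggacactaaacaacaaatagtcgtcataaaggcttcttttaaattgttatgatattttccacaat

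In these windows ND-42 held an E-box at -237, a BEAF-32 core at -203 and a respiratory gene element at -144, 4 bp downstream of its summit at -148. ND-SGDH held a BEAF-32 core at -191 and a respiratory gene element at -86, with the summit at -148. ND-51 held an E-box at -44, and COX8 a BEAF-32 core at -31. The windows of ND-ASHI and ATPsynE held none of these 5 motifs. Positions count from the start site to the first base of the match, and a match describes letters, not a bound site.

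Reproducible Su(var)2-10-GFP peaks stood at the promoters of 9 of the 88 oxidative phosphorylation genes, 5 in complex I, 1 in complex III, 2 in complex IV and 1 in complex V. This is 10.2% (interval 5.47 to 18.3), against 12.1% of all 13945 protein-coding genes, so the share lies near the background. Complex I had a peak at 12.5% of its genes (5.46 to 26.1), complex II at 0 of 8 (upper limit 32.4%), complex III at 11.1% (1.99 to 43.5), complex IV at 12.5% (3.5 to 36.0) and complex V at 6.67% (1.19 to 29.8). These intervals overlap one another and all contain the background share. The bars of the share of genes by complex show the width of these intervals.

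**Figure D1:**
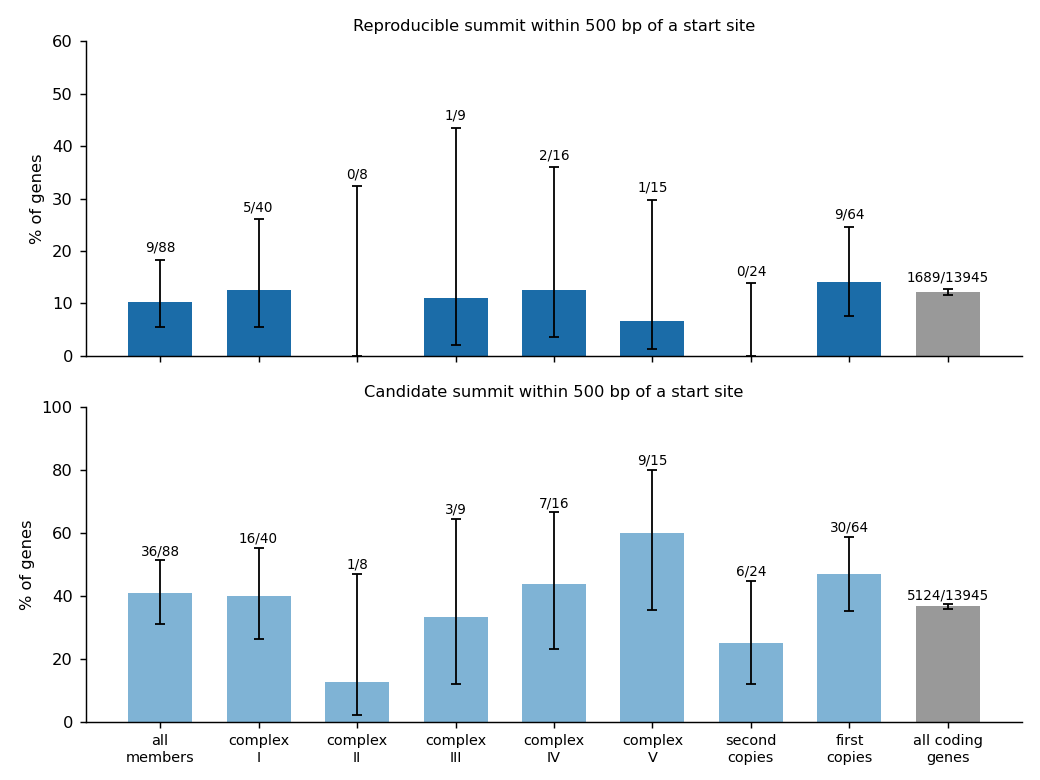
Share of genes in percent (vertical axis) with a reproducible summit (top) or any candidate summit of the pooled list (bottom) within 500 bp of a start site, for all members, each complex, second copies, first copies and all protein-coding genes. First copies are all members other than second copies. Bars are shares with 95% Wilson intervals and the counts above them; 9 of 88 members had a reproducible summit, and none of the 24 second copies did.

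The 5 complex I genes carried the 5 highest peaks among the members. ND-ASHI (FBgn0029888), an accessory subunit of the membrane arm, had its peak at chromosome X 6679281 to 6679418 with a signal of 293.31, rank 656 of the pooled list and q = 0.000399. The signal there was 163.23 in replicate 2 (rank 550) and 127.73 in replicate 3 (rank 938). By its best pooled signal ND-ASHI ranked 484 among the 5124 genes that had any candidate within 500 bp. Its summit lay 239 bp upstream of the start site, in an intron of Fum1, which encodes fumarase of the tricarboxylic acid cycle, and 283 bp upstream of a further Fum1 start.

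ND-MWFE (FBgn0085468), a small accessory subunit, had a signal of 277.26 (rank 730) at chromosome 2R 13158242 to 13158777. It reached 123.71 in replicate 2 (rank 931) and 139.67 in replicate 3 (rank 777). The summit lay 156 bp upstream of ND-MWFE, in an intron of TppII, a peptidase gene on the opposite strand. It was 65 bp upstream of the nearest TppII start. A weaker candidate summit of rank 13906 lay nearer to ND-MWFE, 49 bp downstream of its start.

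ND-42 (FBgn0019957), an accessory subunit, had a signal of 267.03 (rank 785) at chromosome 3R 22027293 to 22027828. The replicates gave 157.1 (rank 596 in replicate 2) and 107.34 (rank 1342 in replicate 3), with summits 1 and 0 bp from the reproducible one. The summit lay between ND-42, 148 bp away, and Cchl, 81 bp away on the opposite strand. Nearer to ND-42 lay a weaker pooled candidate of rank 11106, 53 bp downstream of its start. Cchl encodes cytochrome c heme lyase, which attaches heme to the electron carrier between complexes III and IV.

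ND-SGDH (FBgn0011455), another membrane arm accessory subunit, had a signal of 206.49 (rank 1295, q = 0.00116) at chromosome 3L 12138464 to 12138999. Signal was 81.72 in replicate 2 (rank 1911) and 134.03 in replicate 3 (rank 857). The summit lay almost midway between ND-SGDH, 148 bp away, and RhoGAP68F, 136 bp away, whose starts are 284 bp apart on opposite strands.

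ND-51 (FBgn0031771) encodes the core subunit that takes electrons from NADH, and it alone among the members had 2 reproducible peaks within 500 bp. The higher, at chromosome 2L 6062514 to 6063049, had a signal of 197.76 (rank 1425) with its summit 25 bp upstream of ND-51. The lower had a signal of 133.02 (rank 2771, q = 0.0208), with its summit 229 bp upstream of ND-51 and 3 bp upstream of the opposite gene CG13994. Replicate 2 had a summit within 6 bp of each, at ranks 2059 and 5789. Replicate 3 had a single summit of rank 1097 and signal 118.22 between them, 125 bp from the higher and 79 bp from the lower.

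Outside complex I the peaks were weaker. COX8 (FBgn0263911), a small subunit of cytochrome c oxidase, had a signal of 158.49 (rank 2070) at chromosome 3L 21539424 to 21539959. Its replicate signals were 60.8 in replicate 2 (rank 3162) and 97.85 in replicate 3 (rank 1631). The summit lay 245 bp upstream of COX8 and 170 bp upstream of VhaM9.7-b, a vacuolar proton pump subunit gene on the opposite strand.

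COX7C (FBgn0040773), another small subunit of complex IV, had its peak furthest from the start site, 403 bp upstream at chromosome 2R 10047682 to 10048217, in an intron of oys. The signal was 145.01 (rank 2422), with 48.66 in replicate 2 (rank 4616) and 93.44 in replicate 3 (rank 1789). A weaker pooled candidate of rank 10959 lay nearer, 192 bp upstream.

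ATPsynE (FBgn0038224), the subunit e of the ATP synthase membrane part, had a summit 22 bp upstream of its start at chromosome 3R 14326657 to 14327192, with a signal of 144.65 (rank 2428). Replicate 2 gave 57.53 (rank 3480) and replicate 3 gave 87.3 (rank 2041). Afti starts 258 bp away on the opposite strand.

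UQCR-11 (FBgn0260008), a subunit of the cytochrome bc1 complex, was the member just inside the filter. Its peak at chromosome 3L 25120360 to 25120895 had a signal of 129.62, rank 2909 and q = 0.0242, with the summit 81 bp upstream. Replicate 2 gave 46.2 (rank 5088, q = 0.269) and replicate 3 gave 76.6 (rank 2620, q = 0.00554). It was the only one of the 9 with no start of another protein-coding gene within 500 bp of its own starts.

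The strongest peaks of the 5 complex I genes were among the best 2942 of both replicates, while those of the 4 other members were among the best of replicate 3 and not of replicate 2. At COX8, COX7C, ATPsynE and UQCR-11 the q-value in replicate 2 was 0.113, 0.239, 0.143 and 0.269. The q-values of replicate 2 were higher as a list, at 0.0909 for rank 2942, against 0.00833 for rank 2942 of replicate 3. Counted from the best 2942 peaks of replicate 2 alone, 6 members had a peak, against 11.8% of all genes. From replicate 3 alone 10 members had one, against 12.6% of all genes. Replicate 2 added COX7AL2, and replicate 3 added COX5A. Across the 31 members with a candidate within 500 bp in both replicates, the ranks of the strongest such peaks gave a Spearman's rho of 0.781, and across the 3711 genes of this kind 0.782. The strongest peaks of a gene need not be the same peak in both replicates, and the values describe genes within 1 pair of libraries.

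**Figure D2:**
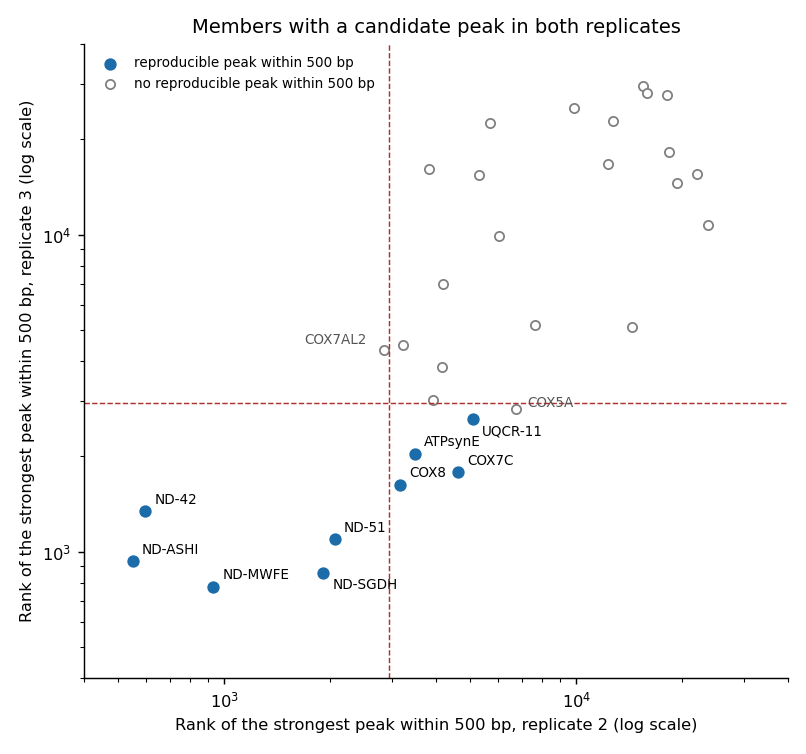
Rank of the strongest peak within 500 bp of a start site in replicate 2 (horizontal) and replicate 3 (vertical), both on log scales, for the 31 members with one in both. Dashed lines mark rank 2942; the 9 members with a reproducible peak are filled, and 5 of them, all of complex I, lie inside both lines.

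Below the filter the next members were ND-30, COX5A, ND-49, COX7AL2, ND-24, ATPsynbeta, ATPsynCF6 and ATPsyngamma, at pooled ranks from 3532 to 6263. ND-30, a core subunit of the peripheral arm of complex I, was just outside the reproducible set with a signal of 115.15 and q = 0.0514. The pooled summit lay at -174, that of replicate 2 at -173 with a signal of 51.81 (rank 4146), and that of replicate 3 at -302 with 62.22 (rank 3823). COX5A had a pooled signal of 114.29 (q = 0.0532), with rank 6740 in replicate 2 and rank 2828 in replicate 3.

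ND-49, also a core subunit of complex I, had a signal of 110.52 with the summit 132 bp upstream. Replicate 3 had a summit of rank 3004 at -109, and replicate 2 one of rank 4149 at -221, while its strongest lay elsewhere, at +306 with rank 3925. ND-49 is 1 of the 2 members on chromosome 4. ATPsynbeta, the catalytic subunit of the ATP synthase, is the other, with a signal of 97.49 at -206 and a summit of rank 3207 at -181 in replicate 2. The strongest summit in replicate 3 lay at another site, at -413 with rank 4498, and the one nearest the start was at +91 with rank 8783. ND-24, which works beside ND-51 in NADH oxidation, had 101.97 with the summit 59 bp downstream of its start.

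ATPsynCF6, a stalk subunit, differed between the replicates, with rank 3818 in replicate 2 and rank 16166 in replicate 3 for a pooled signal of 84.63. ATPsyngamma, the rotating shaft of the enzyme, had 81.59 and ranks of 6030 in replicate 2 and 9918 in replicate 3. COX7AL2 was the highest second copy, with a pooled signal of 107.81, a summit 357 bp downstream of its start, and a summit of rank 2841 at +318 in replicate 2. In replicate 3 the summit near that site, at +396, ranked 20926, and the strongest, of rank 4339, lay at -493. It was also the only member whose nearest reproducible summit lay more than 500 and at most 1000 bp away, at 610 bp.

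**Figure D3:**
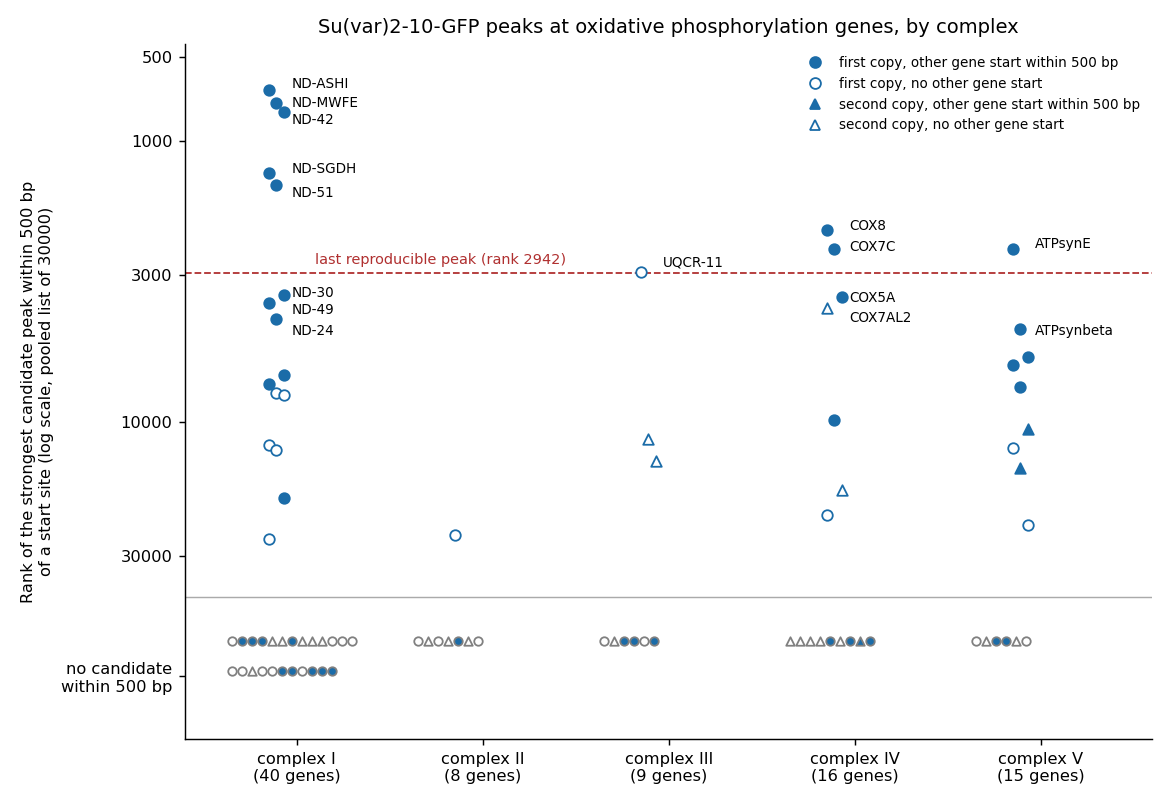
Rank of the strongest candidate peak of the pooled list within 500 bp of a start site (vertical, log scale, best at the top) for each of the 88 members by complex; genes with no candidate stand at the bottom. Circles are first copies and triangles second copies, filled where another protein-coding gene starts within 500 bp; the 5 highest points are complex I genes, and 9 points lie above the dashed line at rank 2942.

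Any candidate peak, reproducible or not, lay within 500 bp of 36 members, which is 40.9% (interval 31.2 to 51.4), against 36.7% of all genes. Their best pooled rank had a median of 7036.5 among the members and 5972.5 among all 5124 genes with a candidate. In complex V 9 of 15 genes had a candidate (interval 35.7 to 80.2%), in complex IV 7 of 16, in complex I 16 of 40, in complex III 3 of 9 and in complex II 1 of 8. No candidate of any of the 3 lists lay that near to 44 of the 88 members, against 50.8% of all genes.

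Within complex I, the 7 nuclear core subunits ND-75, ND-51, ND-24, ND-49, ND-30, ND-23 and ND-20 carry the redox centres and the quinone site. A candidate lay within 500 bp of 6 of them (85.7%, interval 48.7 to 97.4), all but ND-75, at ranks from 1425 to 7983, against 36.7% of all genes. Among the other 27 first copies of complex I, 10 had one (37.0%, 21.5 to 55.8). Another protein-coding gene started within 500 bp of 71.4% of the core genes and 55.6% of the others, against 30.9% of all genes. The part of such neighbours in the candidate shares was not tested. A reproducible peak stood at 1 of the 7 core genes, ND-51 (14.3%, 2.57 to 51.3), and at 4 of the 27 others (14.8%, 5.92 to 32.5), both near the 12.1% of all genes. This split was chosen after the values had been seen, and its members are few.

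Complex II, succinate dehydrogenase, joins the tricarboxylic acid cycle to the respiratory chain. SdhA, its flavoprotein, had the nearest reproducible summit of the complex, 1010 bp upstream at a signal of 166.41 and rank 1892. For SdhB, the iron-sulfur subunit, the nearest reproducible summit was 2385 bp away, for the membrane anchor SdhC 5044 bp and for the anchor SdhD 2262 bp. SdhD alone had a candidate within 500 bp, of rank 25209 and signal 38.47. The copies SdhAL, SdhBL and SdhCL and the assembly factor gene Sdhaf3 were 12560 to 81524 bp from a reproducible summit.

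Complex III, the cytochrome bc1 complex, had UQCR-11 above and otherwise only weak candidates. UQCR-11L had one of rank 13783 and UQCR-6.4L one of rank 11459. UQCR-C1 and UQCR-C2, the core proteins, were 3952 and 2597 bp from a reproducible summit, and UQCR-14, UQCR-6.4, UQCR-Q and UQCR-14L were 4161 to 32541 bp away.

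In complex V, ATPsynG had a candidate of rank 7487, 53 bp upstream, and ATPsyndelta one of rank 12390, 194 bp upstream. ATPsynC, whose product forms the proton-driven ring, had one of rank 23166. ATPsynCF6 was 1075 bp and ATPsyndelta 1799 bp from a reproducible summit. For ATPsynB, ATPsynD, ATPsynF and ATPsynO, which belong to the stalk and membrane part, no pooled candidate lay within 500 bp. Of the copies, ATPsynepsilonL (rank 10586) and ATPsynbetaL (rank 14615) had a candidate, and ATPsynCF6L and ATPsynGL had none.

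Further complex IV genes are named here after their values had been seen. COX5B had a candidate of rank 9837 at 133 bp upstream and COX4 one of rank 21425 at 479 bp upstream. COX6B, COX7A and COX7B had no pooled candidate within 500 bp. COX7CL, the copy next to COX7C, had one of rank 17405, and its nearest reproducible summit was the COX7C peak, 2398 bp away. COX5B and COX5BL, also neighbours, shared their nearest reproducible peak of signal 243.12, 4329 and 2698 bp from their starts.

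Second copies had no reproducible peak at their promoters. Of the 24 second copies 0 had one, which allows a share of up to 13.8%, against 9 of 64 first copies (14.1%, interval 7.58 to 24.6). The first copies are all other members, so this does not compare genes with their own copies. The intervals overlap, and the background of 12.1% lies inside both. Another protein-coding gene started within 500 bp of 12.5% of second copies and 59.4% of first copies. First copies with such a neighbour had a reproducible peak in 8 of 38 cases (21.1%), against 22.3% of all genes with one. Without a neighbour it was 1 of 26 first copies (3.85%), against 7.57% of all genes without one. The part of neighbours in the contrast between copies was not tested. Candidates lay within 500 bp of 6 second copies (interval up to 44.9%) and 30 first copies (46.9%, interval 35.2 to 58.9). The share of all genes with a candidate, 36.7%, lies inside both intervals. Second copies also lay further from any reproducible summit, at a median of 22389.5 bp, against 6776.0 bp for first copies and 13729.0 bp for all genes. None of the 3 candidate lists had a summit within 500 bp of 17 second copies (70.8%), against 50.8% of all genes. Copies can share sequence, and no source used here says how reads that fit several places were treated.

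Most members with a peak shared their promoter region with another gene. Another protein-coding gene started within 500 bp of 41 of the 88 members (46.6%, 36.5 to 56.9), against 30.9% of all genes. This held for 3 of 24 second copies (12.5%, 4.34 to 31.0) and 38 of 64 first copies (59.4%, 47.1 to 70.5). Of the 9 members with a reproducible peak 8 were of this kind, against 960 of all 1689 genes with a reproducible peak. Peaks past the filter were counted at 8 of 41 members with such a neighbour (19.5%), against a background of 22.3% of all genes with one. Without a neighbour it was 1 of 47 members (2.13%), against 7.57% of all genes without one. Within each class the members' share was therefore not above the background.

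For 7 of the 9 members the other gene lay on the opposite strand with a start within 500 bp of the summit, and the summit was upstream of the nearest start of each gene. The matching count over all genes with a peak is not given here, so this is no trait particular to the members. The partners were Fum1, TppII, Cchl, RhoGAP68F, CG13994, VhaM9.7-b and Afti. At ND-MWFE, ND-42, ND-SGDH and COX8 the nearest protein-coding start belonged to the partner. When a peak was given only to the gene with the nearest start, 5 members kept one, ND-ASHI, ND-51, COX7C, ATPsynE and UQCR-11, against 9.25% of all genes. One peak between a pair of genes cannot be assigned to either from these lists.

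The strongest reproducible summits at members were upstream of the start site in 9 of 9 cases, at a median of -148 bp and between -403 and -22 bp. Over all 1689 genes with a reproducible peak, 90.3% of the strongest such summits were upstream, at a median of -177 bp. Among the 36 members with any candidate, 27 were upstream (interval 58.9 to 86.2%) at a median of -132.5 bp, against 76.7% and -159.0 bp over all genes with a candidate. A summit between genes on opposite strands counts as upstream of both.

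**Figure D4:**
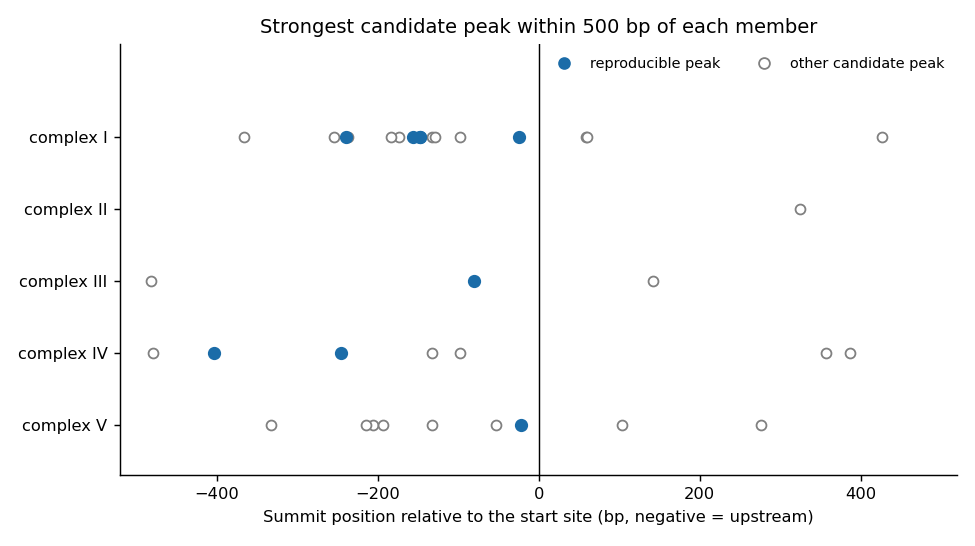
Position of the strongest candidate summit of the pooled list relative to the nearest start site in bp (horizontal, negative upstream) for the 36 members that had one within 500 bp, by complex. Filled points are the 9 reproducible peaks, which lie between -403 and -22 bp; open points are other candidates.

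The same windows, 250 bp before to 50 bp after the start shared by most transcripts, were searched at all members. The respiratory gene element, described at nuclear genes of mitochondrial energy metabolism in Drosophila, was in 7 of 88 promoters (7.95%, 3.91 to 15.5), against 5.09% of all promoters of this length. These were ND-30, ND-42, ND-49, ND-MNLL, ND-SGDH, Sdhaf3 and ATPsyngamma. Of the 7, 2 had a reproducible peak, against 112 of the 710 genes with the element. In a window of 100 bp on each side of the same start, the element was in 9 members (10.2%, 5.47 to 18.3), against 2.3% of all genes. All 9 were of complex I, which made 22.5% of its 40 genes (12.3 to 37.5), and 0 of the 48 other members held it. They were ND-18, ND-20, ND-30, ND-49, ND-ACP, ND-B14.7, ND-B18, ND-MNLL and ND-SGDH, and ND-SGDH alone of them had a reproducible peak. In the window of 250 bp before to 50 bp after, complex I held the element at 5 of 40 genes (12.5%, 5.46 to 26.1). There complex II held it at 1 of 8 genes and complex V at 1 of 15. The share of all genes, the members that held the element and their split by complex thus depended on the window.

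Motif 1, the core of a promoter motif common at housekeeping genes, was in 15 members (17.0%, 10.6 to 26.2), against 7.79% of all promoters. Of these 15, 1 had a reproducible peak, against 137 of the 1086 genes with the motif.

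The DRE, bound by the factor DREF, was in 9 members (10.2%, 5.47 to 18.3), against 9.23% of all promoters. The E-box was in 23 members (26.1%, 18.1 to 36.2), against 17.8%, with 15 of 40 in complex I and 1 of 16 in complex IV. GAGAG was in 21.6% of members (14.3 to 31.3), against 30.2% of all promoters. The BEAF-32 core was in 53.4% of members and 47.5% of all promoters, the letters TCAGT of the initiator in 39.8% and 52.1%, and TATAAA in 55.7% and 45.5%. Members also had lower G and C content, at a median of 34.3%, against 38.0% over all promoters, and its part in these shares was not tested. At ATPsynE the start shared by most transcripts differs from the one printed above. The window of that start holds matches to the DRE, the E-box and the BEAF-32 core.

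Second copies held fewer of these matches than first copies by share, apart from GAGAG. The respiratory gene element was in 0 of 24 second copies (upper limit 13.8%) and 7 of 64 first copies (10.9%). Motif 1 was in 1 of 24 second copies (4.17%) and 14 of 64 first copies (21.9%), and the E-box in 8.33% of second copies and 32.8% of first copies. GAGAG was in 37.5% of second copies and 15.6% of first copies, but within 100 bp on each side in 16.7% of second copies and 12.5% of first copies. The intervals of both kinds overlap for each motif, and no test was made.

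**Figure D5:**
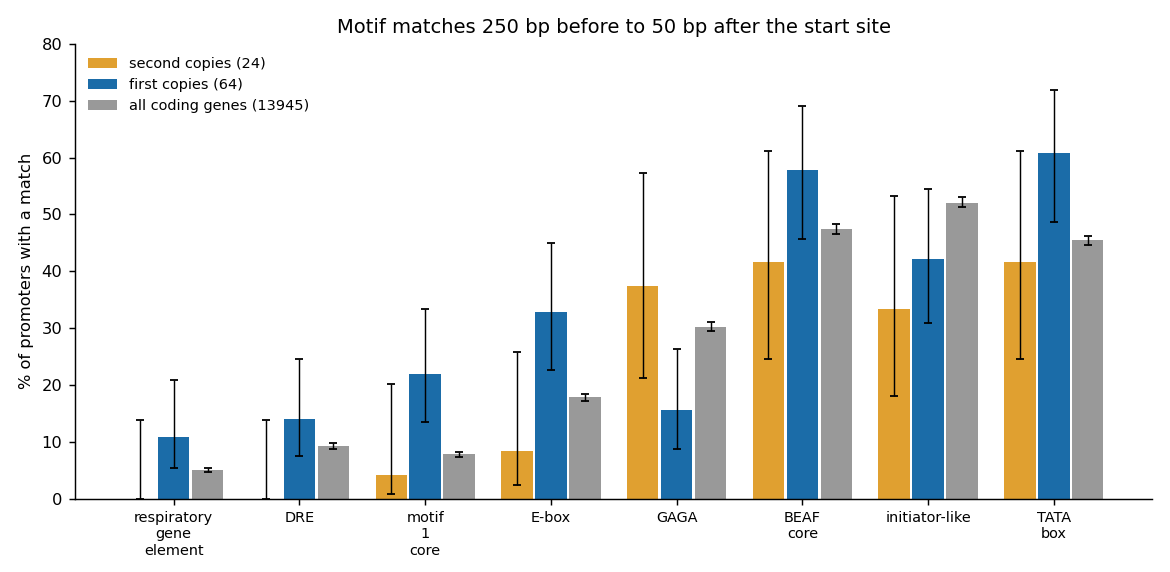
Share of promoters in percent (vertical) with at least 1 match to each motif on either strand, from 250 bp before to 50 bp after the start site, for second copies, first copies and all protein-coding genes, with 95% Wilson intervals. Motif 1 was in 4.17% of second copies, 21.9% of first copies and 7.79% of all genes.

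Other lists of mitochondrial genes had shares whose intervals contain the background or, for the tricarboxylic acid cycle, begin just above it. Of 10 subunit and electron carrier genes with other names 2 had a reproducible peak (20.0%, 5.67 to 51.0, against 12.1% of all genes), Cyt-c-d (signal 498.82, rank 195), a cytochrome c gene, and levy (219.72, rank 1146), which encodes subunit 6a of complex IV. The Cyt-c-d summit lay 329 bp downstream of its start. Its rank was above that of every one of the 88 members.

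Among 12 matched assembly genes 3 had a peak (interval 8.89 to 53.2%), CIA30 (signal 263.58, rank 800) and Nubpl (213.19, rank 1209), both needed to build complex I, and Coa8 (133.42, rank 2760), of complex IV. Among 18 genes of the tricarboxylic acid cycle and pyruvate dehydrogenase 5 had one (27.8%, 12.5 to 50.9), against 12.1% of all genes. They were Idh3g (430.25, rank 272), Fum1, through the peak it shares with ND-ASHI, Pdhb (217.22, rank 1166), mAcon1 (212.65, rank 1214) and Ogdh (165.56, rank 1911). The Ogdh peak was uneven between replicates, whose best peaks within 500 bp ranked 11250 in replicate 2 and 2134 in replicate 3. Another protein-coding gene started within 500 bp of 10 of the 18 cycle genes (55.6%, 33.7 to 75.4), against 30.9% of all genes. A reproducible peak stood at 22.3% of all genes with such a neighbour and at 7.57% of those without one. The part of neighbours in the share of the cycle genes was not tested. Of 16 genes of mitochondrial DNA expression and biogenesis 1 had a peak (6.25%, 1.11 to 28.3), against 12.1% of all genes. This was ERR (347.34, rank 463), a nuclear receptor gene known for the control of energy metabolism in the fly.

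With another distance, with the higher peaks alone or with 1 start per gene, the members' share was at or below that of all genes. Within 250 bp 8 members had a reproducible peak (9.09%), against 9.1% of all genes, and within 1000 bp 10 had one (11.4%), against 14.2%. From the 1471 reproducible peaks of highest signal 5 members, all of complex I, had one (5.68%), against 7.46%. With a single start per gene, at its annotated 5′ end, the count was 9 members, against 10.4% of all genes.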

How the data were processed

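Su(var)2-10-GFP was mapped by chromatin immunoprecipitation and sequencing in 2 biological replicates of 1 group. Peaks were called per replicate and on pooled alignments against a control, per the deposited file notes; no source used here gives the aligner, the peak caller or the IDR version and threshold. The signal is a score deposited by the authors with no fixed unit, and q-values came from the deposited −log10 q. The deposited lists on dm3 were not used.

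Summits (peak start plus summit offset) were set against start sites of Ensembl release 115 (BDGP6.54) and the RefSeq Release 6 genome, both dm6; every peak ended inside its arm. Tools were pandas 2.3.3, numpy 2.4.6, scipy 1.17.1 and matplotlib 3.10.9 under Python 3.11.15. The distance search recovered planted summits in simulated data. Second copies are symbols ending in L or L with a digit, except ND-MNLL, where the letters name the subunit; the digit and this exception were added after the symbols were read. Of the assembly names 19 matched no symbol, and of the cycle names 4. Each member with a reproducible peak was named, then the 8 next by signal, then those with one over 500 and up to 1000 bp away. Members and lists were chosen with earlier results of these data known. Alternatives covered distance, peak set, replicate, start site, peak assignment and membership.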

Additional observations from a re-analysis of the deposited data

How the results depend on the processing

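Of 57 alternative values, 42 stayed within 1.5 times the main count. With only the upper 1471 reproducible peaks, the members with a peak numbered 5 in place of 9 (first copies 5), and complexes III, IV and V had 0 each. When a peak went only to the nearest gene, 5 members had one, with 2 in complex I and 1 in complex IV. Within 250 bp complex IV had 1, and within 1000 bp second copies had 1, COX7AL2. With 1 replicate left out, the count ran from 6 to 10 over all members, stayed at 5 in complex I and 0 in complex II, and ran from 0 to 1 in complex III, 1 to 3 in complex IV, 0 to 1 in complex V, 0 to 1 among second copies and 5 to 10 among first copies. The lower values came from the best peaks of replicate 2 alone, except among second copies; the cause was not tested. With 100 bp on each side of the start, 9 members held the respiratory gene element in place of 7. No paired analysis was possible because there is 1 group. Adding the subunit genes of other names gave 11 of 98, and leaving out second copies 9 of 64; reading copies as symbols that end in L gave 0 of 21. The wider subunit list was planned, and leaving out second copies was added once the data had been seen. Symbols that end in L were the planned reading of copies, and the main reading was set after the symbols were read. Depth is unknown, and no control profile was used. Complex II (0 of 8) and the second copies (0 of 24) hold too few genes to tell a share near the background from 0. Complex III (1 of 9) holds too few to tell its share from the background.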
